A study of Mus musculus with 18 samples.

Results

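The genes described are 10 members of the bone morphogenetic protein (BMP) pathway, taken by symbol from the 55401 genes of the deposited tables: the ligands Bmp2, Bmp4 and Bmp7, the secreted antagonist Grem1, the target genes Id1, Id2 and Id3, and the inhibitors Smad6, Smad7 and Bambi. All 10 had an FPKM (RNA fragments of a gene scaled to its exonic length and to the mapped fragments of the library) of at least 1 in at least 2 libraries and were tested. The study measured RNA by sequencing during chemical reprogramming, in which small molecules in the medium, rather than introduced genes, turn somatic cells into pluripotent ones. There were 18 libraries in 9 groups, with 2 libraries per group. The starting cells (D0) were mouse embryonic fibroblasts of strain 129XOG2 at E13.5, grown in DMEM with serum and used at early passage. Cells of the same origin were taken at 2-day steps from day 2 to day 12 of reprogramming medium (D2, D4, D6, D8, D10 and D12). What that medium held is not given in the labels. The end points were induced pluripotent stem cells of the same strain (riPSC) and the R1 mouse embryonic stem cell line (mESC). Both were kept on feeder cells, in serum-free medium with LIF, the GSK3 inhibitor CHIR99021 and the MEK inhibitor PD0325901. These libraries can therefore hold RNA of feeder cells, and the mESC group is 1 line. In bulk RNA, fewer cells of a type and less RNA per cell cannot be told apart. Nothing in the labels says that the 2 libraries of a group came from separate cultures, so the spread behind each p-value is that of the libraries and may be technical.

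BMPs are secreted dimers of the TGF-beta family. They bind type I and type II receptor kinases, which phosphorylate Smad1, Smad5 and Smad9, and these enter the nucleus with Smad4 and act on target genes. The Id genes are the best known direct targets: their proteins lack a DNA-binding domain and hold basic helix-loop-helix factors in inactive dimers. Smad6 and Smad7, which block receptors and Smads inside the cell, and Bambi, a receptor-like protein without a kinase, are themselves induced by the pathway and restrain it. Grem1 encodes gremlin 1, which binds BMP2, BMP4 and BMP7 outside the cell and keeps them from their receptors. In fibroblast reprogramming BMP signalling is known for its part in the loss of mesenchymal character, and in mouse embryonic stem cells for sustaining Id expression beside LIF.

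Id1, Id3 and Bmp4 had their highest levels at D4, while Grem1 was high at D2 and D6 and low at D4. From D2 to D4, however, Id1 did not pass and the rise of Bmp4 was not firm. From D6 to D8 Bmp4, Id1 and Id3 fell, and riPSC had lower Id1, Id3 and Bmp4 than mESC. Smad7 was high in both stem cell groups and low throughout the course.

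The libraries differed in quality and make-up in ways that bear on these genes. Their depth, estimated from the steps between low values, was 16.4 to 24.5 M read pairs in 17 libraries, and the depth of the second D2 library could not be resolved. Fewer genes were listed above 0 in D0, with 13751 and 16517, than in the libraries of the other groups, with 18712 to 23544. The part of this in the values of 0 in D0, and in rises from D0, was not tested. The replicates were not equally close. Over genes, the 2 libraries of a group lay a median of 0.280 apart (log2 of FPKM + 1) for D0, 0.243 for D2, 0.184 for D4, and 0.090 to 0.141 for the other 6 groups. Since all groups share 1 estimate of spread, p-values between D0, D2 and D4 may be too small. Of 10 fibroblast markers, 9 were at 1 FPKM or more in both D0 libraries, and the summed level of the 10 was 780 to 1224. That count did not set D0 apart, since it was 8 in riPSC and 8 in mESC. The sums there were 105 to 111 and 182 to 198. Levels in D0 were uneven, from Lum at 1.05 and 3.25 and Dcn at 0 and 5.08 to Col1a1 at 303 and 502. In D0 there were also 7 of 8 myeloid and 7 of 8 striated muscle markers at 1 FPKM or more. Their sums were 104 to 115 and 261 to 324, against 16.3 to 17.1 and 18.7 to 23.6 in D2. Of 10 pluripotency markers, 8 were listed at 0 in both D0 libraries and none was at 0 in riPSC, where the sum was 4891 to 5170. Over all genes tested, the middle log2 fold change was 0.24 for D2, 0.50 for D6 and 0.62 for riPSC against D0, and -0.06, -0.05 and -0.01 after quantile normalization, so differences from D0 are read beside that shift. How far library make-up enters the results below was not tested.

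Each difference is a log2 fold change of FPKM + 1 with its standard error, tested with limma over 16439 genes. A gene is said to have risen or fallen, or to be higher or lower, only where the adjusted p is under 0.05 and the change at least 2-fold on that scale, which understates changes of genes with low values. From D0 to D2, 6 of the 10 genes rose and 4 did not pass (19.5% of all genes tested rose and 4.63% fell). The median log2 fold change was 1.36 over the 10 genes and 0.24 over all genes. When only the 4 libraries of D0 and D2 entered the fit, none of the 10 passed, 5 had an unadjusted limma p under 0.05, and 88 genes passed in all. The share of all genes at that unadjusted cutoff was not counted, so the 5 have no background to be read against. When the filter on low values was applied to those 4 libraries alone as well, a setting chosen after the data were seen, 5 of the 10 and 2852 genes passed. From D2 to D4, 4 rose and 2 fell (5.66% and 4.48% of all genes), and the 4-library fit kept 1, Bambi, with 337 genes in all, or 5 and 1300 with that filter.

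From D4 to D6, 2 of the 10 rose and 5 fell (11.6% and 6.86% of all genes), and the median was -0.88 against 0.07 over all genes. Between D6 and D8, 5 fell and 5 did not pass (11.3% of all genes fell and 15.1% rose), with a median of -1.19 against 0.08. At D10, 6 were lower than at D8 and 4 did not pass (2.43% of all genes were lower and 0.426% higher), and the median was -1.10 against -0.01. That count was 3 to 4 when any 1 of the 4 libraries was left out, and 3 and 2 with pseudocounts of 0.1 and 5. From D10 to D12 only Bmp2 passed, and it fell (4.68% of all genes fell and 6.01% rose). Over the longer span to D6, 5 were higher than in D0 and 1 lower (32.8% and 8.79% of all genes). In riPSC against D0, 2 were higher and 5 lower (40.1% and 13.0% of all genes), and the median was -1.21 where that of all genes was 0.62. D8 had 6 genes above riPSC and 2 below (16.6% and 15.0% of all genes), and D12 had 4 above and 3 below (16.7% and 19.8%). Between riPSC and mESC, 3 of the 10 were lower in riPSC and 7 did not pass (1.20% of all genes were lower and 1.84% higher).

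**Figure D1:**
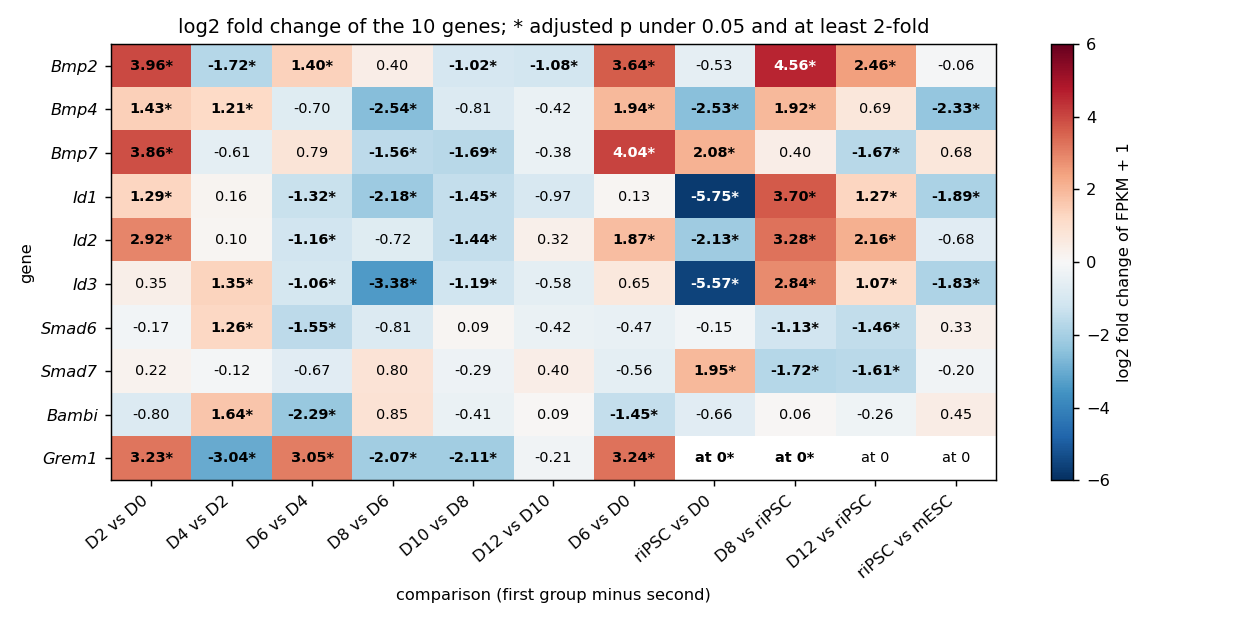
Heat map of the log2 fold change of FPKM + 1 (colour and printed value) for the 10 genes (rows) in the 11 comparisons (columns, first group minus second), from 2 libraries per group. Asterisks mark calls at an adjusted p under 0.05 and at least 2-fold, and cells marked at 0 give no fold because both riPSC libraries were listed at 0. The Id1, Id2 and Id3 rows are negative in the steps from D4 to D6, D8 and D10, and the Grem1 row alternates in sign over the first 3 steps.

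Bmp2, on chromosome 2 from 133552159 to 133562885 (mm10), encodes a ligand known for bone and heart formation. Its D0 libraries were at 0.522 and 0.481 FPKM, those of D2 at 28.2 and 17.8, and those of D4 at 5.02 and 7.34. It then stood at 19.3 and 16.2 in D6, 24.1 and 23.0 in D8, 9.98 and 12.4 in D10, and 5.07 and 4.40 in D12. In riPSC it was listed at 0 and 0.0837, and in mESC at 0.132 and 0.0368. Bmp2 was thus high at D2, D6 and D8 with a dip at D4, and near 0 in the pluripotent cells; the D8 and D2 libraries overlapped, as did those of D2 and D6 and those of D4 and D12. It rose from D0 to D2 (log2 fold change 3.96 ± 0.20, limma adjusted p = 2.64e-08), fell to D4 (-1.72 ± 0.20, limma adjusted p = 5.20e-05) and rose again to D6 (1.40 ± 0.20, limma adjusted p = 1.28e-04). The fall from D8 to D10 was close to the fold threshold (-1.02 ± 0.20, limma adjusted p = 0.00624) and did not pass without the first D8 or the first D10 library, with pseudocounts of 0.1 and 5, with median-of-ratios scaling, without mitochondrial genes or with the length trend removed. Likewise, the fall to D12 (-1.08 ± 0.20, limma adjusted p = 0.00124) did not pass without the second D10 library, with a pseudocount of 5 or with median-of-ratios scaling. At D12 Bmp2 was still above riPSC by 2.46 ± 0.20 (limma adjusted p = 3.21e-07), though not with a pseudocount of 5.

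Bmp4, on chromosome 14 from 46383520 to 46390669, encodes a ligand that patterns the early embryo and feeds Id expression in pluripotent cells. Its levels were 7.90 and 21.1 FPKM in D0, 54.3 and 24.7 in D2, and 75.9 and 98.7 in D4. They were 54.0 and 51.5 in D6, 8.80 and 7.66 in D8, 4.13 and 4.35 in D10, and 2.85 and 3.01 in D12. In riPSC they were 1.37 and 1.49 and in mESC 10.3 and 12.199. Both D4 libraries lay above every other library, and the D0 replicates differed by more than any later pair did on a log scale. The increases to D2 (1.43 ± 0.37, limma adjusted p = 0.00621) and from D2 to D4 (1.21 ± 0.37, limma adjusted p = 0.0263) rested on single libraries. The first did not pass without the first D0 or the first D2 library, and the second did not pass without the second D2 or the second D4 library. Neither passed after quantile normalization or in either fit of the 4 libraries, nor did the second without the filter on low values. The fall from D6 to D8 was 2.54 on the log2 scale (-2.54 ± 0.37, limma adjusted p = 8.74e-05) and passed in all settings tried. The change from D4 to D6 did not pass (-0.70 ± 0.37, limma adjusted p = 0.141). Bmp4 was lower in riPSC than in D0 (-2.53 ± 0.37, limma adjusted p = 4.25e-05). It overlaps 2 genes of the opposite strand, Gm15217 and Gm15222, which were at most 1.78 and 5.51 FPKM. Whether the counting used strand is not stated, so reads of the overlap cannot be told apart.

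Bmp7, on chromosome 2 from 172868012 to 172940321, encodes a ligand needed in kidney and eye. In D0 it was listed at 0 and 1.78 FPKM, in D2 at 35.9 and 15.0, and in D4 at 14.2 and 15.7. In D6 it reached 26.2 and 26.8, and then 8.28 and 8.34 in D8, 1.66 and 2.14 in D10, and 1.33 and 1.12 in D12. Its riPSC values were 5.68 and 6.45 and its mESC values 3.35 and 3.43. It was the one ligand that was higher in riPSC than in D0 (2.08 ± 0.40, limma adjusted p = 4.29e-04), a call that did not pass with a pseudocount of 5 or in the fit of the 4 libraries. The rise to D2 was 3.86 ± 0.40 (limma adjusted p = 1.12e-05), and the change from D2 to D4 did not pass, with overlapping libraries. Bmp7 fell from D6 to D8 (-1.56 ± 0.40, limma adjusted p = 0.00542, not passing with a pseudocount of 0.1) and again to D10 (-1.69 ± 0.40, limma adjusted p = 0.0185). The fall to D10 did not pass when any 1 of its 4 libraries was left out, with either other pseudocount or without the filter.

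The 3 ligands together showed a change of make-up. Bmp4 gave 79.8% and 81.1% of their summed FPKM in the D4 libraries, Bmp2 gave 58.5% and 59.0% in D8, and Bmp7 gave 80.5% and 80.4% in riPSC. The sum was 95.1 and 122 FPKM in D4, 99.5 and 94.5 in D6, 41.2 and 39.0 in D8, and 7.05 and 8.02 in riPSC. The sums of D4 and D6 overlapped although their make-up differed, with Bmp4 at 54.3% and 54.5% of it in D6. The sum is a description with no test.

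Grem1, on chromosome 2 from 113746164 to 113758646, was at 1.97 and 2.92 FPKM in D0, 42.7 and 22.4 in D2, and 2.73 and 3.09 in D4. In D6 it stood at 33.0 and 29.7, in D8 at 6.56 and 6.80, in D10 at 0.651 and 0.925, and in D12 at 0.446 and 0.642. Both riPSC libraries listed it at 0, and the mESC libraries had 0.846 and 0.903. The D2 and D6 libraries overlapped each other and lay above all others, and the D4 libraries overlapped those of D0. Grem1 rose to D2 (3.23 ± 0.23, limma adjusted p = 4.00e-07), fell to D4 (-3.04 ± 0.23, limma adjusted p = 1.44e-06) and rose to D6 (3.05 ± 0.23, limma adjusted p = 6.81e-07). It then fell to D8 (-2.07 ± 0.23, limma adjusted p = 7.64e-06) and to D10 (-2.11 ± 0.23, limma adjusted p = 8.41e-05). From D2 to D6 mitochondrial transcripts moved in the same way, at 34.1% and 15.9% of the FPKM sum in D2, 6.42% and 12.4% in D4 and 44.2% and 35.4% in D6. Their share was 50.2% and 52.4% in D8 and 52.3% and 51.4% in D10, where Grem1 fell. Mitochondrial transcripts were also left out and the rest rescaled to a common FPKM sum. The log2 fold changes of Grem1 were then 3.17 to D2, -2.86 to D4, 3.15 to D6, -2.23 to D8 and -2.07 to D10, and all 5 passed.

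**Figure D2:**
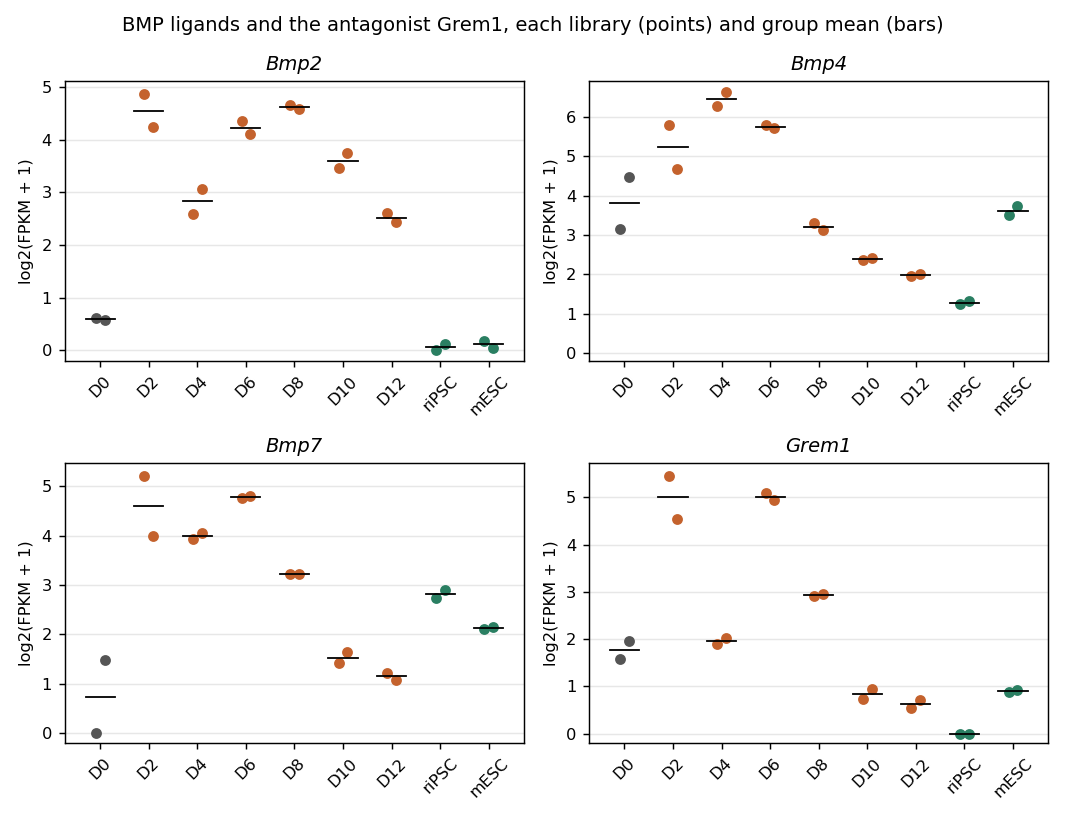
Level of Bmp2, Bmp4, Bmp7 and Grem1 (log2 of FPKM + 1, vertical axis) in the 9 groups (horizontal axis), with 1 point per library and a bar at the mean of 2 libraries. Bmp2 and Grem1 dip at D4 (5.02 and 7.34, and 2.73 and 3.09 FPKM), where Bmp4 is highest (75.9 and 98.7 FPKM).

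Of 16 other secreted antagonists and modulators, 12 could be tested, and 3 rose from D2 to D4 (5.66% of all genes rose) while Grem1 fell. They were Sostdc1, Nbl1 and Nog, all of which bind BMPs. Sostdc1 (sclerostin domain containing 1) went from 2.84 and 0.837 FPKM in D2 to 17.9 and 24.3 in D4 (3.04 ± 0.27, limma adjusted p = 6.32e-06). Nbl1, the DAN antagonist, went from 121 and 67.5 to 460 and 517 (2.42 ± 0.22, limma adjusted p = 7.49e-06). Nog (noggin) went from 0.805 and 2.08 to 8.12 and 8.72 (2.00 ± 0.20, limma adjusted p = 1.46e-05). In the fit of the 4 libraries none of these 3 passed.

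From D4 to D6 the same list had 2 genes higher and 3 lower of 12 (11.6% and 6.86% of all genes), the latter Nbl1, Nog and Sostdc1. Nog fell to 0.447 and 0.495 FPKM (-2.68 ± 0.20, limma adjusted p = 6.62e-07) and Nbl1 to 67.8 and 72.5 (-2.78 ± 0.22, limma adjusted p = 1.14e-06), while Grem1 rose. Follistatin, encoded by Fst, was at 1.44 and 2.66 in D4 and 44.8 and 41.1 in D6 (3.88 ± 0.99, limma adjusted p = 0.00651), a call that did not pass with a pseudocount of 0.1. From D6 to D8, 5 of the 12 fell (11.3% of all genes), among them Nbl1 (-2.47 ± 0.22, limma adjusted p = 1.29e-06) and Fstl1, a follistatin-like secreted protein (-1.98 ± 0.16, limma adjusted p = 4.07e-07). From D10 to D12 3 rose (6.01% of all genes): Bmper, an endothelial regulator of BMPs, reached 20.7 and 19.8 from 3.00 and 2.48 (2.51 ± 0.30, limma adjusted p = 3.54e-05), Fstl1 reached 116 and 115, and Nog 2.82 and 3.06. The Nog call of that step did not pass without the second D10 library, with a pseudocount of 5, without mitochondrial genes or with the length trend removed. In riPSC 5 of the 12 were lower than in D0 and 1 higher (13.0% and 40.1% of all genes). The median of the list was -1.26 there, with all genes at 0.62.

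**Figure D3:**
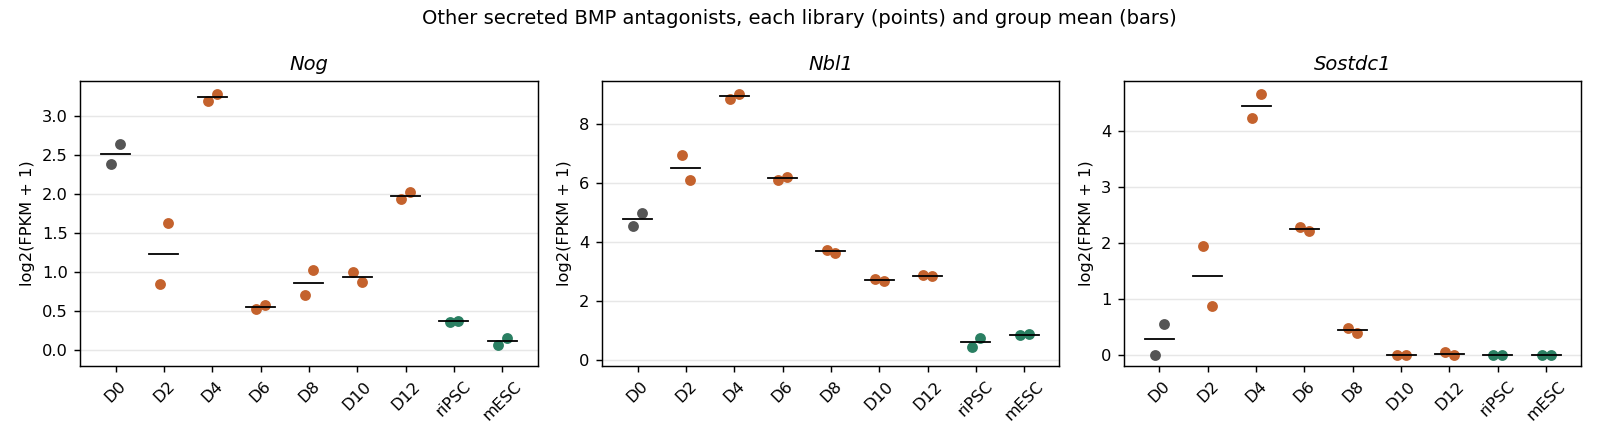
Level of Nog, Nbl1 and Sostdc1 (log2 of FPKM + 1, vertical axis) in the 9 groups (horizontal axis), 1 point per library and a bar at the mean of 2 libraries. All 3 are highest at D4, where Grem1 was at 2.73 and 3.09 FPKM.

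Among 11 further BMP-type ligands 6 could be tested. Bmp6, a relative of Bmp7, was listed at 0 and 0.220 FPKM in D0, 5.005 and 2.83 in D2 and 8.07 and 13.0 in D4, and it rose to D2 (2.12 ± 0.22, limma adjusted p = 9.42e-06), though not with a pseudocount of 5 or in the fit of the 4 libraries. From D4 to D6 3 of the 6 rose, Gdf7, Gdf6 and Bmp8b, and Bmp6 fell (11.6% and 6.86% of all genes). Gdf6 was at 0.435 and 0.416 in D4, 3.56 and 3.07 in D6 and 0.289 and 0.268 in D8, and it was back at 3.35 and 2.86 in D12 (1.65 ± 0.10 from D10, limma adjusted p = 7.87e-08). Gdf6 and Gdf7, known from joint and limb development, were both lower at D8 than at D6, by -1.75 ± 0.10 and -1.45 ± 0.17 (limma adjusted p = 1.74e-08 and 1.64e-05). With a pseudocount of 5 none of these calls of Gdf6, Gdf7, Bmp8b and Bmp6 passed.

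Of 11 receptors and co-receptors 9 could be tested, and 4 rose from D4 to D6 (11.6% of all genes). Rgma and Rgmb encode membrane-anchored co-receptors that bind BMPs. Rgma stood at 7.71 and 11.05 FPKM in D4 and 31.5 and 30.6 in D6 (1.65 ± 0.18, limma adjusted p = 1.26e-05), and Rgmb at 2.76 and 3.78 and then 25.6 and 24.9 (2.63 ± 0.14, limma adjusted p = 6.39e-08). Both fell by D8, to 9.86 and 9.57 and to 9.99 and 8.21. The type I receptor gene Bmpr1a was the 1 list member that rose from D6 to D8, from 7.09 and 6.66 to 18.9 and 18.2 (1.31 ± 0.22, limma adjusted p = 2.80e-04, not passing with a pseudocount of 5), as the ligands Bmp4 and Bmp7 fell. The type II receptor gene Bmpr2 was higher at D12 than in riPSC (2.07 ± 0.22, limma adjusted p = 3.03e-06), with 8.51 and 8.06 against 1.17 and 1.25. Eng (endoglin), a co-receptor of endothelial cells, fell from D0 to D2 (-2.34 ± 0.14, limma adjusted p = 7.40e-08, not passing in the fit of the 4 libraries) and was at 14.2 and 15.3 in riPSC and 24.0 and 27.0 in mESC.

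Of the receptor Smads, Smad1 was listed at 0 and 4.97 FPKM in D0, stood at 10.3 and 7.47 in D2, and was at 24.7 and 26.1 in D12. Its rise from D0 to D2 (2.00 ± 0.55, limma adjusted p = 0.00810) did not pass without the first D0 or the first D2 library, with a pseudocount of 5 or in either fit of the 4 libraries. Smad5 was at 14.0 and 15.1 in D4 and 4.78 and 5.20 in D8, which were not compared by a test. It did not pass from D4 to D6 or from D6 to D8. Smad9 did not pass the filter on low values. Of 12 Smads and cofactors 11 could be tested. In riPSC 7 of them were higher than in D0 and 4 did not pass (40.1% of all genes were higher), with a median of 1.49 beside 0.62 over all genes. The calls of Ppm1a, Smurf2 and Smad1 did not pass after quantile normalization or with the length trend removed. That of Smad1 was also lost without the first D0 library, with a pseudocount of 5 and in either fit of the 4 libraries. Tob1, a protein that binds receptor Smads, rose from D4 to D6 and again to D8, where it was at 30.1 and 30.2 (1.35 ± 0.18, limma adjusted p = 4.63e-05).

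Id1, on chromosome 2 from 152736251 to 152737410, was at 208 and 204 FPKM in D0, 495 and 515 in D2, and 567 and 562 in D4. It fell to 219 and 230 in D6, 48.8 and 49.0 in D8, and 16.2 and 18.3 in D10, with 10.5 and 6.47 in D12. The riPSC libraries had 2.33 and 3.44 and the mESC libraries 12.6 and 13.9. No neighbouring pair of groups overlapped when ordered by level, which ran D4, D2, D6, D0, D8, D10, mESC, D12 and riPSC. Id1 rose to D2 (1.29 ± 0.18, limma adjusted p = 9.32e-05), although not with median-of-ratios scaling. From D2 to D4 Id1 did not pass (0.16 ± 0.18, limma adjusted p = 0.563). Its falls were -1.32 ± 0.18 to D6 (limma adjusted p = 7.33e-05), -2.18 ± 0.18 to D8 (limma adjusted p = 5.88e-07) and -1.45 ± 0.18 to D10 (limma adjusted p = 2.25e-04). All 3 passed in all settings tried. At D6 it was back at the level of D0 (0.13 ± 0.18, not called), when Bmp4 was still at 54.0 and 51.5. In riPSC Id1 was 5.75 below D0 on the log2 scale (-5.75 ± 0.18, limma adjusted p = 3.23e-11).

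Id3, on chromosome 4 from 136143497 to 136145755, was at 167 and 235 FPKM in D0, 249 and 258 in D2, and 590 and 714 in D4. It stood at 304 and 318 in D6, 27.8 and 30.2 in D8, 10.6 and 13.9 in D10, and 6.71 and 9.07 in D12. Values of 2.79 and 3.65 in riPSC and 12.8 and 15.2 in mESC closed the series. The D4 libraries were above all others, and only mESC and D10 overlapped among neighbours in the order of levels. Unlike Id1, Id3 did not pass from D0 to D2 (0.35 ± 0.19, limma adjusted p = 0.150) and rose from D2 to D4 (1.35 ± 0.19, limma adjusted p = 2.52e-04); whether the 2 genes differed in these steps was not tested. The fall from D6 to D8 was the largest fall of any member between neighbouring days (-3.38 ± 0.19, limma adjusted p = 2.22e-08). From D4 to D6 the fall was at the threshold (-1.06 ± 0.19, limma adjusted p = 7.42e-04) and did not pass without the second D4 library, after quantile normalization, without mitochondrial genes or with the length trend removed. Id3 fell again to D10 (-1.19 ± 0.19, limma adjusted p = 0.00171), though not with a pseudocount of 5.

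Id2, on chromosome 12 from 25093799 to 25097140, was far lower per length than Id1 and Id3 in the first days. Its values were 5.70 and 11.02 FPKM in D0, 91.3 and 49.1 in D2, 48.2 and 108 in D4, and 37.9 and 26.5 in D6. They were 16.7 and 21.5 in D8, 7.63 and 5.24 in D10, and 10.12 and 6.55 in D12. In riPSC they were 1.26 and 0.874 and in mESC 2.51 and 2.09. From D0 to D10 the 2 libraries of a group lay further apart for Id2 than for Id1 on the log2(FPKM + 1) scale, and D2 and D4 overlapped. It rose to D2 (2.92 ± 0.41, limma adjusted p = 9.71e-05). The falls to D6 (-1.16 ± 0.41, limma adjusted p = 0.0329) and from D8 to D10 (-1.44 ± 0.41, limma adjusted p = 0.0412) were not firm. The first did not pass without the second D4 or the second D6 library, with a pseudocount of 0.1, without the filter, after quantile normalization or in the fit of the 4 libraries. The second did not pass when any 1 of its 4 libraries was left out, with either other pseudocount, without the filter, without mitochondrial genes or with the replicate block. Id2 made up 1.498% and 2.45% of the summed FPKM of the 3 Id genes in D0 and 37.0% and 29.6% in D12. That sum was 1205 and 1383 FPKM in D4, 562 and 575 in D6, 93.3 and 101 in D8, 27.4 and 22.1 in D12, and 6.37 and 7.96 in riPSC.

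**Figure D4:**
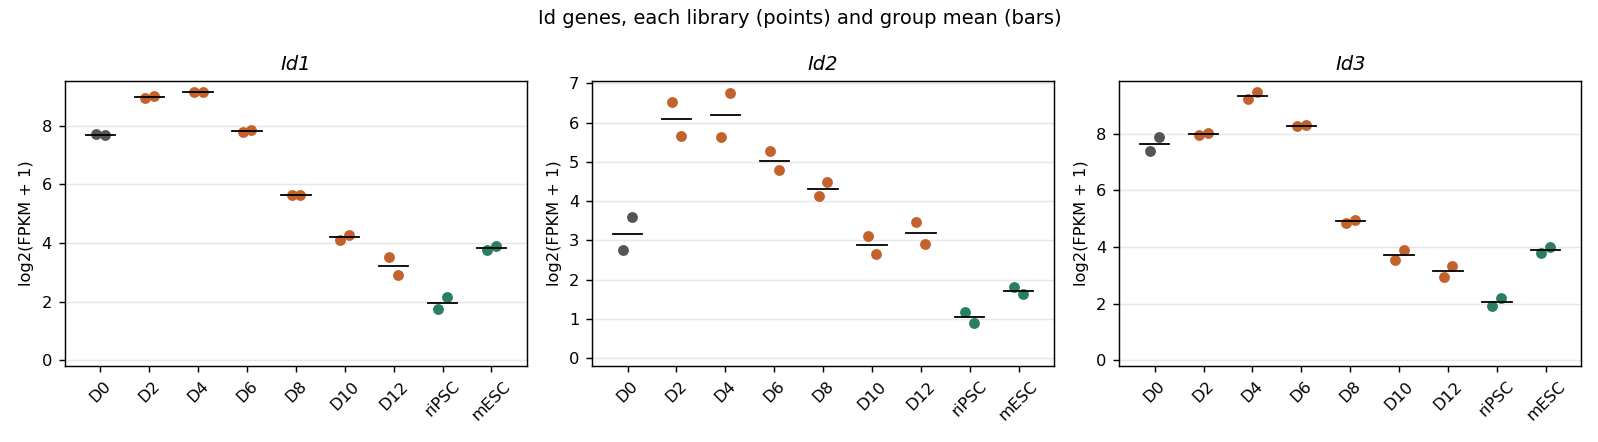
Level of Id1, Id2 and Id3 (log2 of FPKM + 1, vertical axis) in the 9 groups (horizontal axis), 1 point per library and a bar at the mean of 2 libraries. Id1 and Id3 descend from D4 (567 and 562, and 590 and 714 FPKM) to D12 (10.5 and 6.47, and 6.71 and 9.07 FPKM) and are lower in riPSC than in mESC.

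Promoters are shown for the Id gene with the largest fall, for Id2, and for Grem1, which moved against Id3 in the steps to D4 and to D6. They run from 250 bases before to 50 bases after the RefSeq start (GRCm38.p6, the assembly of mm10), 5′ to 3′ on the strand of the gene. For Id2 and Id3 that start lies inside the gene coordinates given above, which are of GENCODE, and so does the whole stretch shown. Of the 10 genes, 5 matched the RefSeq table by symbol (Bmp4, Id2, Id3, Smad6 and Grem1) and Id1, Bmp2, Bmp7, Smad7 and Bambi did not. Capitals mark GGCGCC, a motif bound by Smad1 and Smad5, and GTCTG or its reverse complement CAGAC, a form of the Smad box.
Id3 (chr4:136143572-136143871, plus strand): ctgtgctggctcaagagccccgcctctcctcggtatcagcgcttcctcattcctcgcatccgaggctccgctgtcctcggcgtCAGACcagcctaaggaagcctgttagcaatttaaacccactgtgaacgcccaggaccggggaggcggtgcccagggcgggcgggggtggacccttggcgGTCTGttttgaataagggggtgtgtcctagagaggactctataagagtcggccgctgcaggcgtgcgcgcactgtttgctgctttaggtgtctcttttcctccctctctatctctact
Id2 (chr12:25096043-25096342, minus strand): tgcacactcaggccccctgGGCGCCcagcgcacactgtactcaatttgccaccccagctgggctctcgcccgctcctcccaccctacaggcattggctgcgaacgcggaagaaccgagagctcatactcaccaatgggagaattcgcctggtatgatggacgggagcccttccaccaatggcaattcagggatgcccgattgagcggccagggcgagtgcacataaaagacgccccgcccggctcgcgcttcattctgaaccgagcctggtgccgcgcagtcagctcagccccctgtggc
Grem1 (chr2:113758599-113758898, minus strand): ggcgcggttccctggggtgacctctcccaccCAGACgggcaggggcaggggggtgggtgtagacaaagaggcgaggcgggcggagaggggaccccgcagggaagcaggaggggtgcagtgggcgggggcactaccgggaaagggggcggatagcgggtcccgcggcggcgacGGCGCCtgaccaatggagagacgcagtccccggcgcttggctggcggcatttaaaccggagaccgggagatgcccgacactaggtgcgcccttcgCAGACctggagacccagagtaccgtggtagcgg
Id2 had GGCGCC with its first base at -231 and Grem1 at -78, counted from the start. GTCTG or CAGAC was found at -167 and -68 in Id3 and at -219 and 18 in Grem1. Neither marked motif was found in Bmp4 or Smad6. Other forms of the Smad box were not searched, and the Smad6 promoter holds the run GTCTAGAC, so it is not shown to lack a Smad site. Among all 32851 promoters in the table, 11.9% held GGCGCC and 49.6% held GTCTG on either strand. Of 3 further motifs searched, TGACGTCA was in 1.79% of promoters, CACGTG in 7.15% and CAGCTG in 16.3%. CACGTG was at -188 in Bmp4, CAGCTG at -196 in Id2, and TGACGTCA in none of the 5, and no 2 matches overlapped. A match is a run of letters only. Id3 and Grem1 both held GTCTG or CAGAC. They moved in opposite directions in the steps to D4 and to D6, and both fell in the steps to D8 and to D10.

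Of 15 other target genes of BMP signalling 13 could be tested, and 8 fell and 1 rose from D4 to D6 (6.86% and 11.6% of all genes). The 3 Id genes also fell in that step, though the calls of Id2 and Id3 did not pass in every setting. The median was -1.14 over the list and 0.07 over all genes. Atoh8, a helix-loop-helix factor, went from 28.7 and 32.4 FPKM to 8.68 and 10.6 (-1.57 ± 0.12, limma adjusted p = 1.14e-06). Hey1, which also answers to Notch, went from 7.32 and 8.05 to 0.123 and 0.202 (-2.90 ± 0.51, limma adjusted p = 5.51e-04), and Gata2, a blood and trophoblast factor, from 17.6 and 20.9 to 3.60 and 3.86 (-2.09 ± 0.33, limma adjusted p = 2.66e-04). From D2 to D4 4 rose and 1 fell (5.66% and 4.48% of all genes). Msx2, a homeobox gene, was at 2.61 and 1.07 in D2 and 11.5 and 15.0 in D4 (2.37 ± 0.31, limma adjusted p = 1.12e-04), which did not pass in the fit of the 4 libraries. The list did not act as one from D6 to D8, where 4 rose and 3 fell (15.1% and 11.3% of all genes). Gata2 rose (1.93 ± 0.33, limma adjusted p = 3.21e-04) and Msx1, another homeobox gene, fell (-1.74 ± 0.29, limma adjusted p = 2.36e-04) in that step. Neither Gata2 call passed with a pseudocount of 0.1.

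Smad6, on chromosome 9 from 63953076 to 64022059, encodes the inhibitory Smad with a preference for the BMP branch. It was at 4.15 and 7.33 FPKM in D0, 4.46 and 5.18 in D2, 11.6 and 14.4 in D4, and 3.41 and 4.11 in D6. Later values were 1.60 and 1.81 in D8, 1.89 and 1.88 in D10 and 0.977 and 1.35 in D12, with 4.69 and 5.15 in riPSC and 3.46 and 3.98 in mESC. The D4 libraries alone were above 10. Smad6 rose from D2 to D4 (1.26 ± 0.19, limma adjusted p = 4.25e-04) and fell to D6 (-1.55 ± 0.19, limma adjusted p = 4.01e-05), and of these the rise did not pass with a pseudocount of 5. It was lower at D8 than in riPSC (-1.13 ± 0.19, limma adjusted p = 2.54e-04) and lower at D12 (-1.46 ± 0.19, limma adjusted p = 2.62e-05), in contrast to the Id genes, which were higher at both days. With a pseudocount of 5 neither passed.

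Bambi, on chromosome 18 from 3507923 to 3516404, encodes the membrane inhibitor. Its levels were 3.16 and 5.30 FPKM in D0, 1.92 and 1.96 in D2, 7.61 and 8.78 in D4, and 0.936 and 0.810 in D6. They were 2.44 and 2.32 in D8, 1.60 and 1.49 in D10, 1.90 and 1.53 in D12, 1.99 and 2.53 in riPSC and 1.37 and 1.39 in mESC. D4 was the highest and D6 the lowest group, and neither overlapped any other. Bambi rose to D4 (1.64 ± 0.16, limma adjusted p = 1.60e-05) and fell to D6 (-2.29 ± 0.16, limma adjusted p = 5.20e-07), to below D0 (-1.45 ± 0.16, limma adjusted p = 7.59e-06). With a pseudocount of 5 the rise to D4 and the difference from D0 did not pass. The later steps did not pass.

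Smad7, on chromosome 18 from 75367529 to 75395935, encodes the inhibitory Smad of both TGF-beta and BMP receptors. Its values were 4.17 and 6.0997 FPKM in D0, 5.73 and 6.43 in D2, 4.59 and 6.60 in D4, and 2.89 and 3.32 in D6. They were 6.43 and 5.85 in D8, 4.43 and 5.25 in D10, and 6.62 and 6.76 in D12, against 21.8 and 23.1 in riPSC and 24.6 and 27.4 in mESC. All libraries of D0 to D12 lay below all 4 stem cell libraries, and no step between neighbouring days passed. In riPSC Smad7 was above D0 (1.95 ± 0.17, limma adjusted p = 3.23e-07), above D8 (log2 fold change of D8 against riPSC -1.72 ± 0.17, limma adjusted p = 1.98e-06) and above D12 (-1.61 ± 0.17, limma adjusted p = 3.01e-06).

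**Figure D5:**
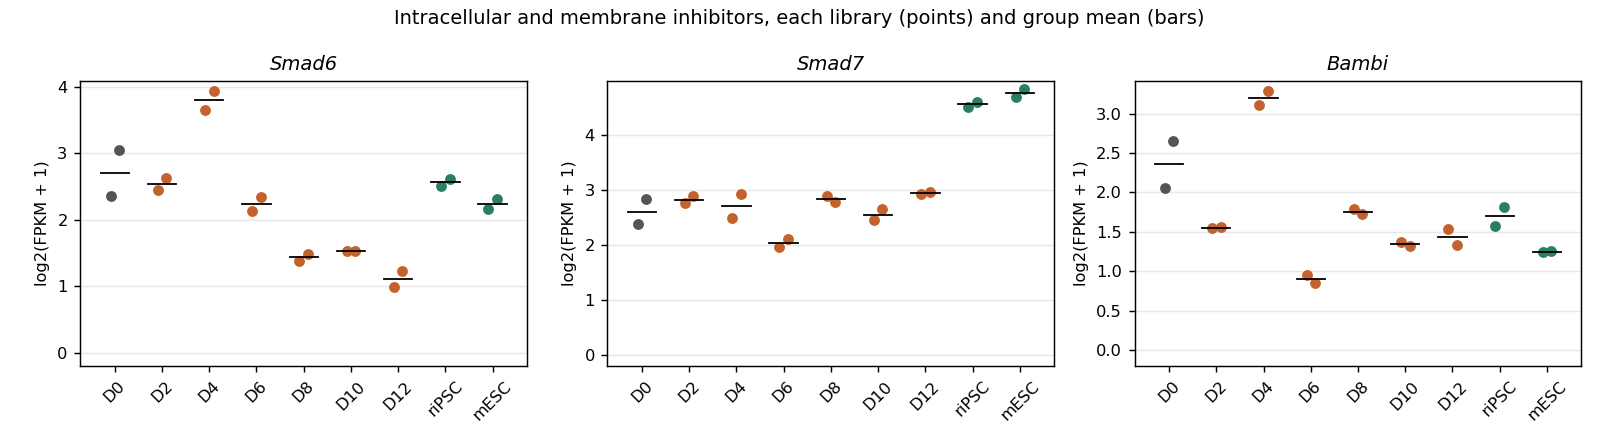
Level of Smad6, Smad7 and Bambi (log2 of FPKM + 1, vertical axis) in the 9 groups (horizontal axis), 1 point per library and a bar at the mean of 2 libraries. Smad6 and Bambi are highest at D4 (11.6 and 14.4, and 7.61 and 8.78 FPKM), and Smad7 is highest in riPSC and mESC (21.8 to 27.4 FPKM).

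The step from D6 to D8, in which Bmp4, Bmp7, Grem1, Id1 and Id3 fell, coincided with a change of cell type markers. The summed level of 10 fibroblast markers was 2491 to 2550 FPKM in D6 and 588 to 595 in D8, and all 10 were at 1 FPKM or more in both groups. Of these markers Pdgfra alone went the other way, from 88.9 and 82.2 in D6 to 108 and 102 in D8. The summed level of 7 epithelial markers was 82.8 to 85.4 and then 1110 to 1118, and that of 12 extraembryonic endoderm markers 162 to 166 and then 857 to 898. The part of these shifts in the falls was not tested.

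Against mESC, 3 genes were lower in riPSC. Id1 differed by -1.89 ± 0.18 (limma adjusted p = 1.87e-05), Id3 by -1.83 ± 0.19 (limma adjusted p = 4.89e-05) and Bmp4 by -2.33 ± 0.37 (limma adjusted p = 0.00117). All 3 calls passed in all settings tried. The fibroblast marker sum was 105 to 111 FPKM in riPSC and 182 to 198 in mESC, with 8 of 10 markers at 1 FPKM or more in both, and the myeloid sum was 14.6 to 15.4 and 29.3 to 29.5. Among the fibroblast markers Dcn went the other way, at 5.88 and 6.45 in riPSC and 3.26 and 3.74 in mESC. Lum overlapped, at 0.518 and 0.741 against 0.475 and 0.538. The part of feeder cells in the 3 called differences was not tested. Id2 did not pass (-0.68 ± 0.41, limma adjusted p = 0.366), nor did Bmp7 (0.68 ± 0.40, limma adjusted p = 0.356) or Smad7 (-0.20 ± 0.17, limma adjusted p = 0.559). Grem1 was listed at 0 in both riPSC libraries and was not called against mESC.

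The late days were also set against riPSC. At D12 Id2 was higher than in riPSC (2.16 ± 0.41, limma adjusted p = 4.67e-04), and so were Id1 (1.27 ± 0.18, limma adjusted p = 4.11e-05) and Id3 (1.07 ± 0.19, limma adjusted p = 3.41e-04). The Id1 call did not pass without the first D12 library, and the Id3 call without the second D12 or the first riPSC library, and neither passed with mitochondrial genes left out or with a pseudocount of 5. Bmp7 was lower at D12 than in riPSC (-1.67 ± 0.40, limma adjusted p = 0.00285), though not with a pseudocount of 0.1 or 5, whereas at D8 it did not differ by the call rule (0.40 ± 0.40, limma adjusted p = 0.413). Bmp4 at D12 did not pass against riPSC (0.69 ± 0.37, limma adjusted p = 0.122).

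The genes whose profile was most like that of each member were taken by Pearson's r of log2(FPKM + 1) over the 18 libraries, which share their groups, so that r is a description without a test. For Id1 they were Arhgef40 (0.98), Lrrc45 (0.98) and Id3 (0.98), and for Id3 they were Id1 (0.98), Lhfp (0.98) and Arhgef40 (0.98). Id2 was nearest to Igfbp3, Lrrc32 and Nr2f2 at 0.97 each. Grem1 was nearest to Ptgs1 (0.99), Mfap3l (0.97) and Trim16 (0.97). Among ligands, Bmp2 was nearest to Sh3pxd2b (0.98), Bmp4 to 9930012K11Rik (0.98) and Bmp7 to Il34 (0.96). Smad7 was nearest to Ash2l (0.98) and Smad6 to Cdk4 (0.96). Bambi had the weakest likeness of the 10, with Sst at 0.88.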

How the data were processed

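RNA of 18 libraries was sequenced as 150-base reads, and the titles of the samples gave the groups and replicate numbers. Per the submitters' processing notes, the authors used fastp 0.20.1, HISAT2 2.2.1 and StringTie 2.0 with the mm10 build; the order, options, annotation release and use of strand are not given in the sources used here. The deposited values are in FPKM by the authors, a unit read from the values (sums that differ between libraries, and steps of value times length in single-exon genes), since no label states it. FPKM is relative to all RNA in a library, so a change in abundant transcripts moves every other gene. No read counts were used here. Depth is an estimate from those steps, by a rule settled on after other rules had given other values, and no result rests on it.

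Symbols, coordinates and exonic lengths came from GENCODE M21 (GRCm38), in which 55141 of 55401 identifiers had a symbol. The test was run on log2(FPKM + 1) of the 16439 genes that reached 1 FPKM in 2 or more libraries. All 18 libraries entered 1 model of group means (limma 3.58.1, R 4.3.3, eBayes with no trend), which leaves 9 residual degrees of freedom. Two-sided p-values were adjusted by the Benjamini-Hochberg method over all genes within each of 11 comparisons, several of which share a group and are not independent. Of the listed genes, 1 is not reported here and was left out of the counts, the medians and the search for like genes. The fit was tested on simulated data with known changes. The 10 genes and the pathway and marker lists were chosen with earlier results of these data known. From each list, up to 4 called genes with the largest log2 fold change per comparison were eligible to be named, besides genes given as not called, and by likeness the 3 genes with the highest r. Alternatives were pseudocounts of 0.1 and 5, a filter of 5 or none, quantile normalization, scaling by median of ratios, rescaling without mitochondrial genes, removal of a length trend, other variance models, the replicate number as a block, only the libraries compared, no fold threshold and leaving out each library. The 2 further settings, named where used (a filter on the compared libraries alone, and crossed replicate numbers), were added after the data were seen. Figures were drawn with matplotlib 3.10.9.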

Additional observations from a re-analysis of the deposited data

How the results depend on the processing

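Of the 110 differences of the 10 genes, 62 were called, 32 of them in every setting run on that comparison (33 settings in all), and no call changed direction. The shares of all genes called are given above for each comparison. How many of all genes kept their calls in every setting was not counted. No read counts were used, so the depth behind a low FPKM is known only as an estimate. Where a library was left out, the one left in its group was assumed to vary like the other groups.

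With only the libraries compared, 88 genes and 0 of the 10 passed from D0 to D2 (5 at an unadjusted limma p under 0.05), and 337 and 1 from D2 to D4. With the filter on those libraries alone, added after the data were seen, the counts were 2852 and 5, and 1300 and 5. The cause was not tested. For the counts at an unadjusted limma p under 0.05, here and below, the share of all genes was not counted. With a pseudocount of 0.1 the genes called were 6326 (D2 against D0), 2701 (D4 against D2), 822 (D10 against D8), 2721 (D12 against D10) and 901 (riPSC against mESC), where 1 gave 3965, 1667, 470, 1757 and 500. Of the 10, 3 then passed for D10 against D8 and 2 for D12 against D10. With a pseudocount of 5 the genes called were 1396 (D2 against D0), 620 (D4 against D2), 1318 (D6 against D4), 1966 (D8 against D6), 124 (D10 against D8), 607 (D12 against D10), 3168 (D6 against D0), 4817 (riPSC against D0), 2471 (D8 against riPSC), 3062 (D12 against riPSC) and 127 (riPSC against mESC). Of the 10, 2 passed for D10 against D8, 2 for D12 against riPSC and 0 for D12 against D10 (4 at an unadjusted limma p under 0.05). With no fold threshold the genes were 8833 (D2 against D0), 5142 (D4 against D2), 7862 (D6 against D4), 9324 (D8 against D6), 1722 (D10 against D8), 5822 (D12 against D10), 11495 (D6 against D0), 10253 (D8 against riPSC), 10585 (D12 against riPSC) and 2076 (riPSC against mESC). Of the 10, 8 passed for D8 against D6 and 3 for D12 against D10. For D12 against D10, 0 of the 10 passed with median-of-ratios scaling (5 at an unadjusted limma p under 0.05), and 2 with quantile normalization, without mitochondrial genes and with the length trend removed. Leaving out 1 library gave 3 to 4 of the 10 for D10 against D8 and 0 to 2 for D12 against D10, where 3 had an unadjusted limma p under 0.05 without the second D10 library.

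The split of all called genes into higher and lower also moved. For D2 against D0 it was 3204 and 761, or 1622 and 1449 after quantile normalization, and for D6 against D0 5395 and 1445, or 2473 and 2471. For riPSC against D0 it was 6595 and 2134, or 3708 and 3759 with the length trend removed. For D4 against D2 it was 930 and 737, or 1286 and 546 without mitochondrial genes and 728 and 938 with median-of-ratios scaling, and for D6 against D4 1910 and 1127, or 1439 and 1291 after quantile normalization. For D12 against D10 it was 988 and 769, or 665 and 1269 without mitochondrial genes, and for D12 against riPSC 2747 and 3253, or 2060 and 4606. Those last scalings moved the median of all genes to -0.24 and -0.34.

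Replicate numbers did not pair the libraries: deviations from the group means correlated at -0.227 to 0.266 over 36 pairs of groups, 5 of them over 0.1 and 3 under -0.1. With the replicate block, 3964 genes passed for D2 against D0 and 465 for D10 against D8, where 5 of the 10 passed and Id2 did not. It changed no other call of the 10 genes. With crossed numbers for the 3 comparisons under -0.1, added after the data were seen, 1664 genes passed for D4 against D2, 3032 for D6 against D4 and 6844 for D6 against D0.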

Other observations

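RNA was also followed for a list of 8 genes of E proteins and helix-loop-helix factors, 7 of which could be tested. Not every gene of the list encodes a protein that Id factors hold. From D0 to D2, 5 of the 7 rose, where 19.5% of all genes did (limma, median log2 fold change 2.61 beside 0.24 over all genes). Twist1, a mesenchymal factor, was at 14.3 and 29.5 FPKM in D0, 452 and 267 in D2, 478 and 621 in D4 and 429 and 430 in D6, and then at 34.7 and 36.1 in D8. Its relative Twist2 was at 106 and 124 in D0, 693 and 722 in D2 and 35.7 and 35.7 in D8. The E protein gene Tcf12 was at 0.766 and 1.92 in D0 and 81.4 and 27.6 in D2, with a wide spread between replicates. In the fit of the 4 libraries none of these 3 passed from D0 to D2. Both Twist genes fell from D6 to D8, the step in which Id1 and Id3 fell: Twist1 by -3.56 ± 0.28 (limma adjusted p = 4.78e-07) and Twist2 by -2.99 ± 0.15 (limma adjusted p = 6.61e-09). Mycn, a Myc family gene that was also on the list and is not meant here as a partner of Id factors, was at 45.1 and 48.1 in riPSC and 5.50 and 5.33 in D12.

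Of the 13 other BMP targets tested, 2 rose and 1 fell from D10 to D12 (6.01% and 4.68% of all genes) and 10 did not pass. The one that fell was Msx1, at 3.71 and 4.49 FPKM in D10 and 1.08 and 0.733 in D12 (-1.42 ± 0.29, limma adjusted p = 0.00214, not passing with a pseudocount of 5). Cdx2, a trophectoderm and hindgut factor, was at 19.3 and 20.9 FPKM in D8, 16.9 and 17.9 in D10 and 20.2 and 23.3 in D12, and listed at 0 in all 4 riPSC and mESC libraries. Gata3, a trophoblast factor, was at 0.819 and 1.03 in D10 and 12.4 and 11.2 in D12 (2.74 ± 0.11 on the log2 scale, limma adjusted p = 2.23e-09). The heart factor gene Tbx20 was at 0.160 and 0.174 and then 4.24 and 3.58 (2.07 ± 0.09, limma adjusted p = 7.53e-09, not passing with a pseudocount of 5). Alpl, the phosphatase used as a stain for pluripotent colonies and also induced by BMPs in bone, was at 25.9 and 25.6 in D8, 10.4 and 13.0 in D12 and 120 and 129 in riPSC. The summed level of 7 trophoblast markers, which include Cdx2 and Gata3, was 35.0 to 35.6 in D10 and 52.6 to 55.0 in D12, and Hand1 was at 0 in both groups. Of that list, Elf5 went from 2.27 and 2.45 in D10 to 0.678 and 1.29 in D12, and Krt7 from 12.5 and 11.9 to 8.28 and 9.13, so the sum did not stand for each marker.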
